A study of Mus musculus with 9 samples.

Results

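The unfolded protein response and the integrated stress response were followed through 42 genes in mouse calvarial pre-osteoblasts that carried an adenovirus for Hif1a or Hif2a. The members are the rows of the count tables whose symbol is on a fixed list, and they make up 42 of 40213 symbols. All 42 had enough counts to be tested. The list holds 19 targets of the transcription factor ATF4, 17 genes of the chaperone arm, and 6 stress sensors and factors. Wild-type pre-osteoblasts were cultured from the skull caps of 3-day-old pups, which the study names as ICR mice. On day 3 the cells received a control adenovirus (Ad-C), or one for Hif1a (Ad-Hif1a) or Hif2a (Ad-Hif2a), whose gene symbol is Epas1. All 3 groups, the control included, were grown in osteogenic medium with L-AA (50 μg/ml) and β-Gp (5 mM) up to day 6, and each gave 3 libraries of total RNA. The labels call the vectors overexpression and do not say whether the proteins were made resistant to oxygen-dependent breakdown.

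The endoplasmic reticulum (ER) folds secreted and membrane proteins, and osteoblasts load it heavily because they secrete collagen and other matrix proteins. When unfolded protein builds up, the kinase PERK (encoded by Eif2ak3) phosphorylates the initiation factor eIF2α, which slows translation in general and favours translation of ATF4. The endonuclease IRE1 (Ern1) splices the messenger of Xbp1, and ATF6 is cut loose from the membrane. XBP1 and ATF6 drive the genes for chaperones and for disposal of misfolded proteins. Other eIF2α kinases reach ATF4 in amino acid shortage or virus infection without the ER, which is why the ATF4 targets are set against the chaperone arm here. Gene counts show neither the splicing of Xbp1, nor the translation of ATF4, nor the cutting of ATF6.

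The sequences around the starts of the genes are shown because they do not rest on the counts, and the motifs of the 2 arms stood mostly in different windows, although Herpud1 held both and the matches in Dnajb11 and Trib3 lie after the start. Promoter windows from RefSeq (build GRCm38.p6, from 250 bases before to 50 bases after the start) were found for 37 of the 42 members. The ER stress element, CCAAT followed by 9 bases and CCACG, was searched on both strands. It stood in 8 of 15 windows of the chaperone arm (53.3%), in 0 of 18 windows of ATF4 targets and in 0.137% of all 27025 windows. Its short form, ATTGG followed by 1 base and CCACG, stood in the windows of Dnajb11 and Herpud1 and in 0.0444% of all windows. The full element also stood in the windows of Canx, Dnajc3, Creld2 and Syvn1, which are not printed. In the lines that follow the motif is in capitals and each run is written 5′ to 3′ on the strand that reads the motif.
Hspa5 (chr2:34772020-34772048): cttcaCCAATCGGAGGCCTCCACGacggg
Hsp90b1 (chr10:86705633-86705661): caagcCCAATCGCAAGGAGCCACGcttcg
Hsp90b1 (chr10:86705528-86705556): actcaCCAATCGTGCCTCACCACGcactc
Calr (chr8:84847070-84847098): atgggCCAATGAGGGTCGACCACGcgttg
Pdia6 (chr12:17266486-17266514): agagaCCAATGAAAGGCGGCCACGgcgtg
Dnajb11, short form (chr16:22857847-22857867): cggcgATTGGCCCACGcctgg
Herpud1, short form (chr8:94386372-94386392): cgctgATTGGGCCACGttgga

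The core of the element bound by ATF4 with C/EBP partners, TGATGNAA, was searched in the same windows. It stood in 7 of 18 windows of ATF4 targets (38.9%), in 1 of 15 windows of the chaperone arm (that of Herpud1) and in 4.51% of all windows. The windows of Ddit3, Ppp1r15a, Mthfd2, Psat1 and Psph did not hold it. These lines show the core in capitals for the ATF4 targets that held it, Vldlr left out, written as above.
Nupr1 (chr7:126625568-126625585): ctgtcTGATGCAAtctgg
Atf3 (chr1:191183431-191183448): cttggTGATGCAAgtgcg
Chac1 (chr2:119351044-119351061): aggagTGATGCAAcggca
Trib3 (chr2:152344034-152344051): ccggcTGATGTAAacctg
Asns (chr6:7693220-7693237): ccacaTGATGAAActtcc
Pycr1 (chr11:120643839-120643856): gtgtaTGATGCAAtgcac

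HIF proteins bind a short core, ACGTG or GCGTG. This core stood in 14 of 18 windows of ATF4 targets (77.8%), in 12 of 15 of the chaperone arm (80.0%) and in 46.7% of all windows. Among sensors and factors it stood in 1 of 4 windows (25.0%). The core overlaps the end of the ER stress element wherever CCACG is followed by C or T. The 250 bases before Nupr1 and Edem1 are shown because these were the members that passed the test with both vectors. Capitals mark the HIF core and, in Nupr1, the ATF4 core read from the other strand. The window of Nupr1 lies on the minus strand (chr7:126625471-126625720) and that of Edem1 on the plus strand (chr6:108828391-108828640). The run CACGTG near the far end of the Nupr1 window reads as a core on both strands.
Nupr1: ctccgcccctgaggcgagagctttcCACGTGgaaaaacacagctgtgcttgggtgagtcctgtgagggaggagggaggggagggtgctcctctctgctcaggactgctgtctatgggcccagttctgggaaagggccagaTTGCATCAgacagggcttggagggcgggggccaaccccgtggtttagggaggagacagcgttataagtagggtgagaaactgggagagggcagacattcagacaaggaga
Edem1: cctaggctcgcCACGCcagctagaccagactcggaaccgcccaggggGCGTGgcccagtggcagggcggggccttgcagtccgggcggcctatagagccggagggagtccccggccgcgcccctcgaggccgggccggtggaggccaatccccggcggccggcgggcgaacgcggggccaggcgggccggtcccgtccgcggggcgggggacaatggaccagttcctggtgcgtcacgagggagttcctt
A match is a description of letters, and binding was not measured.

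Levels are counts scaled to library size (CPM) after adjustment of the libraries by TMM. The libraries held 14372589 to 18623403 counts each. Hif1a was at 186 to 193 CPM with Ad-C, 1240 to 2325 after Ad-Hif1a and 447 to 585 after Ad-Hif2a. Epas1 was at 41.9 to 48.8 CPM with Ad-C, 407 to 679 after Ad-Hif1a and 823 to 2181 after Ad-Hif2a, so each vector group was highest in its own gene and both genes were raised in both groups. The summed level of 9 osteoblast genes was 63744 to 69563 CPM with Ad-C and 48132 to 57987 CPM with the vectors, and none of the 9 was at 0 in any group. The summed level of 12 macrophage markers was 3445 to 3717 CPM with Ad-C and 1512 to 1786 CPM with the vectors. Of the 12, 8 fell in each comparison and none was at 0 in any group, while 3 and 4 of the 9 osteoblast genes fell. Of all genes tested, 6.04% rose and 5.22% fell after Ad-Hif1a, and 7.87% rose and 7.72% fell after Ad-Hif2a. Skeletal muscle markers summed to 66.1 to 82.9 CPM with Ad-C and 7.08 to 14.6 with the vectors, and endothelial markers to 4.41 to 7.65 CPM over all libraries. The sums hide opposite movements. Of the 5 muscle markers tested, 1 rose and 3 fell in each comparison. Of the 3 endothelial markers tested, 0 passed after Ad-Hif1a, and 2 rose and 1 fell after Ad-Hif2a. The part of these shifts in the results was not tested, and in bulk RNA fewer cells of a type and less RNA per cell cannot be told apart. On the second principal component (17.8% of the variance) Ad-Hif1a 1 and Ad-Hif2a 3 stood apart, at 11.4 and 56.5 against -35.7 to -15.4 for the other 4 vector libraries. The Ad-C libraries were at 10.2 to 15.7, so Ad-Hif1a 1 lay within their range on this component. On the first component (63.2% of the variance) Ad-C was at -71.1 to -68.8 and the other 4 vector libraries at 10.55 to 38.7. Ad-Hif1a 1 and Ad-Hif2a 3 lay farthest from Ad-C on it, at 43.0 and 77.9. Mitochondrially encoded transcripts took 2.95% and 2.82% of their counts, against 3.69 to 5.77% in the other vector libraries and 5.92 to 6.37% with Ad-C.

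In control cells the chaperone arm was the more abundant. Per kilobase of exon (GENCODE M21), the Ad-C mean of Calr, the calcium-binding lectin chaperone calreticulin, was 783 ± 20.7 CPM (SD, n = 3). Hsp90b1 (GRP94) stood at 547 ± 39.5 CPM per kilobase and Hspa5 (BiP), the chaperone that also holds the sensors silent, at 213 ± 16.4. The SDs of these 3 levels do not meet. The median over genes was 38.5 CPM per kilobase in the chaperone arm, with a range of 11.0 to 783, and 12.2 among ATF4 targets, with a range of 1.25 to 69.7. Nupr1 (69.7 ± 2.16) and Atf5 (57.1 ± 8.93) led the ATF4 targets. Trib3, which binds and restrains ATF4, was the lowest of the members at 1.25 ± 0.150 CPM per kilobase. Of the sensors and factors, Creb3l1, a membrane-bound factor for collagen secretion in osteoblasts, was highest at 115 ± 7.34 and Ern1 lowest at 3.20 ± 0.169.

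Few members of either arm passed the test with either vector. After Ad-Hif1a, 1 of 42 members rose and 1 fell (2.38% each) at an adjusted p under 0.05 in the quasi-likelihood test of edgeR, where 6.04% of all 14413 genes tested rose and 5.22% fell. After Ad-Hif2a, 2 members rose (4.76%) and 1 fell (2.38%), against 7.87% and 7.72% of all genes. In this fit the shares of members called were below those of all genes in each direction. The counts are 1 or 2 members, so no difference from all genes is drawn from them. Other fits, given below, did not all keep this order. The median log2 fold change over the 42 members was 0.03 after Ad-Hif1a and -0.01 after Ad-Hif2a, and over all genes 0.01 and 0.01. The same 3 control libraries serve in both comparisons. Every library of Ad-Hif1a was higher than every Ad-C library for 9 members and lower for 12, where 24.5% of all genes were higher and 25.9% lower in this way. After Ad-Hif2a the counts were 10 and 10, against 24.0% and 25.5% of all genes. These counts are close to the share of all genes.

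The number of calls changed with the libraries kept. Without Ad-Hif1a 1 and Ad-Hif2a 3, 7 members rose (16.7%) and 4 fell (9.52%) after Ad-Hif1a, while 14.2% of all genes rose and 13.4% fell. After Ad-Hif2a, 6 members rose (14.3%) and 5 fell (11.9%) in this fit, while 14.4% of all genes rose and 14.3% fell. More members passed, and so did more genes in general. Ad-Hif1a 1 and Ad-Hif2a 3 were picked out from the same counts, and the fit without them keeps the other 4 vector libraries. Its calls and p-values, here and wherever both libraries are left out below, are therefore a description and not a test. Leaving out Ad-Hif2a 3 alone gave 7 members that rose (16.7%) and 6 that fell (14.3%) after Ad-Hif1a, against 18.1% and 18.3% of all genes, and 3 of each (7.14%) after Ad-Hif2a, against 11.1% and 11.5%. Leaving out Ad-Hif1a 1 alone gave 1 that rose and 0 that fell after Ad-Hif1a (3.21% and 1.82% of all genes), and 1 of each after Ad-Hif2a (6.82% and 6.25%). Without any 1 Ad-C library 1 member rose and 0 fell in both comparisons, where 2.06 to 3.95% of all genes rose and 0.937 to 2.93% fell. Without both libraries that stood apart, the members that rose in both comparisons included Nupr1, Ddit3, Ppp1r15a and Dnajb11, and those that fell included Edem1, Mthfd2 and Pycr1.

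**Figure D1:**
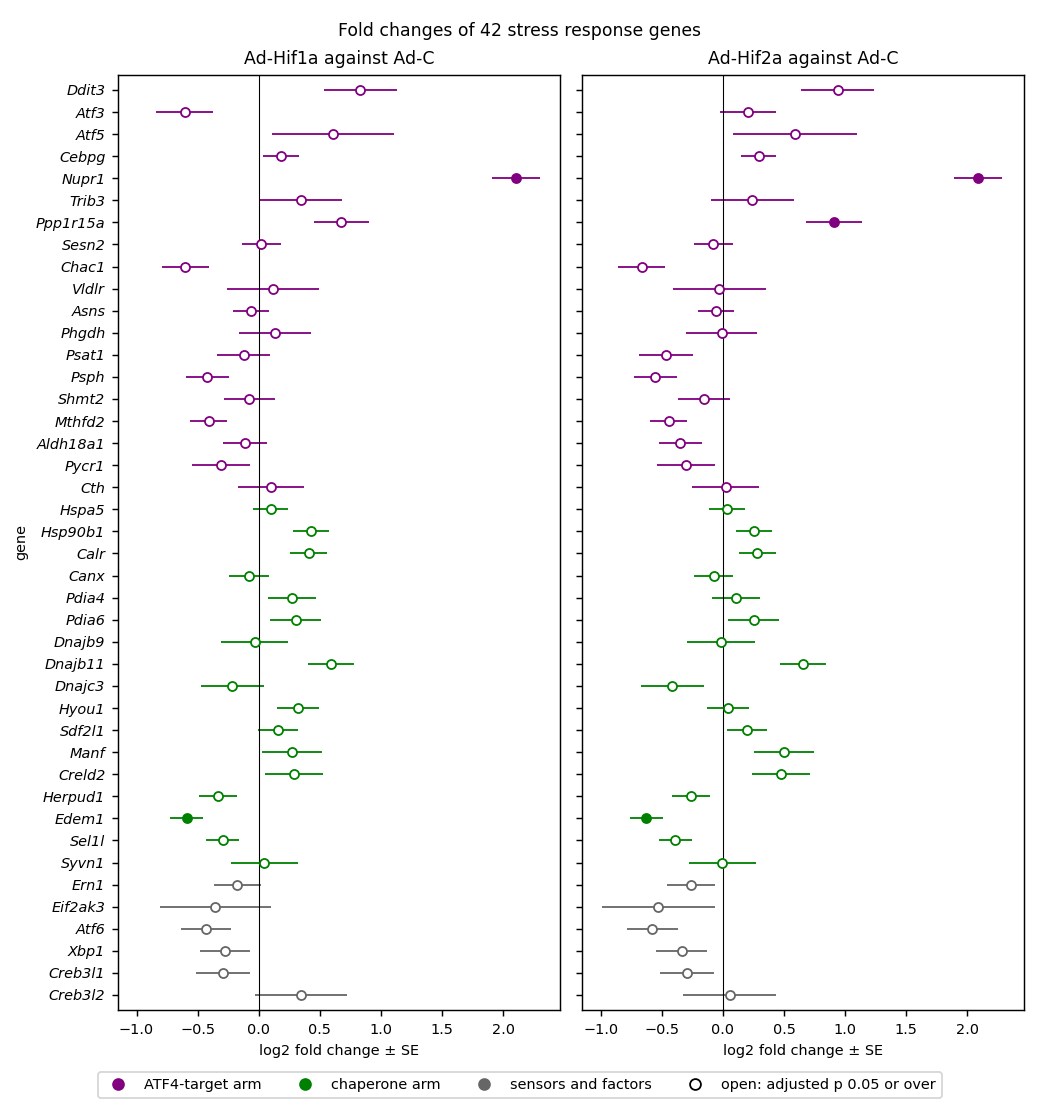
Log2 fold change (x axis) of each of the 42 genes (y axis) in Ad-Hif1a (left) and Ad-Hif2a (right) libraries against Ad-C, with bars for 1 SE, purple for ATF4 targets, green for the chaperone arm and grey for sensors and factors. Filled points passed the test: Nupr1 and Edem1 in both panels and Ppp1r15a after Ad-Hif2a, while the other points are open and most lie within 0.7 of 0.

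Among the transcription factors downstream of ATF4, Nupr1 gave the largest change of the 42 in both comparisons. It encodes a small chromatin protein of the stress response. Its level was 59.2, 55.8 and 58.3 CPM in the Ad-C libraries. It was 292, 249 and 207 CPM after Ad-Hif1a and 243, 203 and 294 CPM after Ad-Hif2a. All 6 vector libraries were above 200 CPM and no control library reached 60, so the groups were far apart. Nupr1 rose 4.31-fold after Ad-Hif1a (log2 fold change 2.11, SE 0.20, edgeR adjusted p = 0.0010) and 4.25-fold after Ad-Hif2a (2.09, SE 0.20, adjusted p = 0.00085). It passed in all 18 alternative analyses of each comparison, at 1.99 to 2.29 and 1.88 to 2.20 on the log2 scale.

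Ddit3, which encodes CHOP, the factor tied to cell death in prolonged ER stress, was at 28.1, 23.8 and 28.1 CPM with Ad-C. It was at 62.8, 45.3 and 33.9 CPM after Ad-Hif1a and at 51.5, 32.6 and 72.5 CPM after Ad-Hif2a. Each vector library was above each control library, but the vector libraries ranged from 32.6 to 72.5 CPM. The log2 fold change was 0.83 (SE 0.30, edgeR adjusted p = 0.13) after Ad-Hif1a and 0.94 (SE 0.30, adjusted p = 0.075) after Ad-Hif2a, and neither passed. Without the libraries that stood apart it was 0.70 (adjusted p = 0.0072) and 0.58 (adjusted p = 0.024), smaller in size and past the threshold.

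Atf5, a factor of the mitochondrial stress response, was the most uneven member. It was at 95.1 to 131 CPM with Ad-C and at 101 to 140 CPM in 4 vector libraries, but at 272 CPM in Ad-Hif1a 1 and 335 CPM in Ad-Hif2a 3. The high values were those of the 2 libraries that stood apart. The SE was 0.50 for Ad-Hif1a and 0.51 for Ad-Hif2a, for fold changes of 0.61 and 0.59 on the log2 scale. Without these libraries the values were 0.17 and -0.17 (edgeR adjusted p = 0.46 each).

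Atf3, an early stress factor, was the only member with an unadjusted p under 0.05 between the vectors. It was at 8.39, 7.57 and 7.22 CPM with Ad-C, at 4.59, 5.23 and 5.28 after Ad-Hif1a and at 12.3, 7.37 and 7.50 after Ad-Hif2a. Each Ad-Hif2a library was above each Ad-Hif1a library, by 0.81 on the log2 scale (SE 0.23, unadjusted p = 0.0096 and adjusted p = 1.00 by edgeR). Cebpg, a partner of ATF4 on DNA, was at 24.5 to 26.4 CPM with Ad-C and 27.1 to 32.3 CPM with the vectors. Neither vector group overlapped Ad-C, at log2 fold changes of 0.18 and 0.29 (SE 0.14 each) that did not pass, while the vector groups overlapped each other.

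Of the feedback and stress regulators, Ppp1r15a encodes GADD34, which brings a phosphatase to eIF2α and lets translation start again. It was at 35.1, 35.2 and 37.6 CPM with Ad-C. After Ad-Hif1a it was at 70.2, 57.1 and 46.4 CPM, and after Ad-Hif2a at 79.6, 47.2 and 79.7 CPM. All vector libraries lay above the controls. Ppp1r15a rose 1.88-fold after Ad-Hif2a (log2 fold change 0.91, SE 0.23, edgeR adjusted p = 0.037) and stood 0.68 higher on the log2 scale after Ad-Hif1a (SE 0.23, adjusted p = 0.11), which did not pass. The difference between the vectors was 0.23 (SE 0.22, adjusted p = 1.00), so the single call does not part them. The Ad-Hif2a call was lost without any 1 Ad-C library (adjusted p = 0.088 to 0.21), without Ad-Hif1a 1 (0.051) or 2 (0.073), or without Ad-Hif2a 1 (0.12).

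Chac1, which degrades glutathione, had lower values with the vectors. It was at 7.51, 7.46 and 7.00 CPM with Ad-C, at 5.44, 4.77 and 4.35 after Ad-Hif1a and at 5.25, 5.09 and 3.64 after Ad-Hif2a. No vector library reached a control library, and the log2 fold changes, -0.60 (SE 0.19, adjusted p = 0.093) and then -0.66 (SE 0.19, adjusted p = 0.057), were not called by edgeR. Without the libraries that stood apart Chac1 fell by 0.64 after Ad-Hif1a (adjusted p = 0.035) and stood at -0.53 after Ad-Hif2a (adjusted p = 0.074). Trib3 was low throughout, at 2.30 to 2.87 CPM with Ad-C and 1.89 to 4.95 CPM with the vectors. Sesn2, an inhibitor of mTORC1, was at 30.1 to 36.0 CPM with Ad-C and 29.3 to 37.1 with the vectors, with log2 fold changes of 0.02 and -0.08 (SE 0.16 each). Vldlr, a lipoprotein receptor, was lowest in Ad-Hif1a 1 (15.5 CPM) and Ad-Hif2a 3 (11.8 CPM) and at 23.8 to 31.7 CPM in the other vector libraries, all above the 20.2 to 23.5 CPM of the controls. Its log2 fold changes of 0.11 and -0.03 became 0.36 and 0.34 without those libraries (edgeR adjusted p = 0.080 and 0.096).

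**Figure D2:**
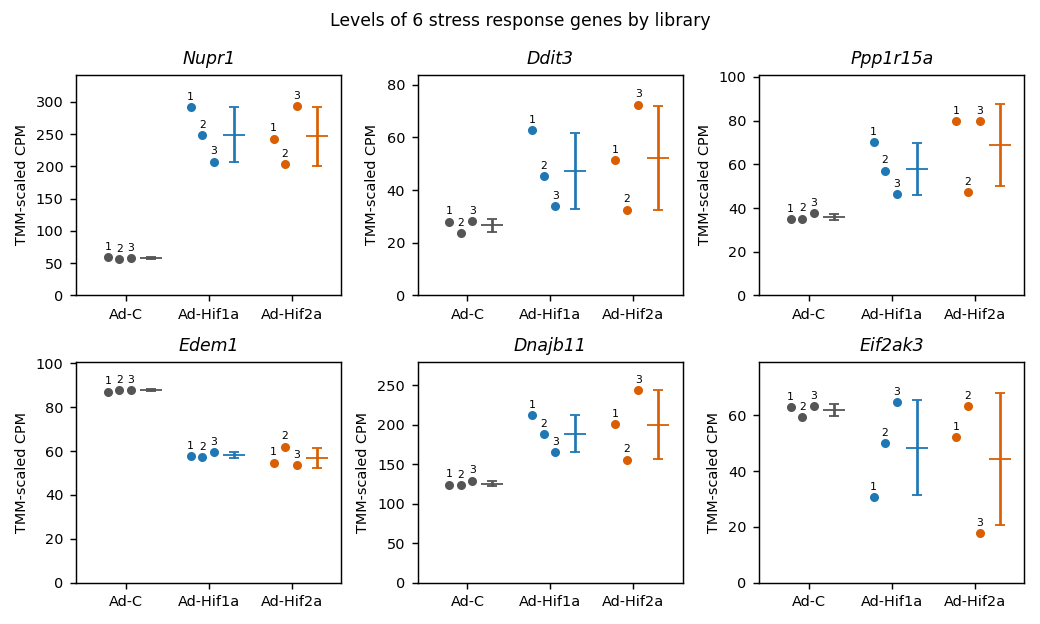
TMM-scaled CPM (y axis, from 0) of 6 genes in the 3 libraries of each group, with points numbered by replicate and a bar for the mean ± SD at their right. Nupr1, Ddit3, Ppp1r15a and Dnajb11 lie above Ad-C in all 6 vector libraries, Edem1 lies below it in all 6, and Eif2ak3 is lowest in Ad-Hif1a 1 and Ad-Hif2a 3.

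None of the 9 enzymes of amino acid and one-carbon synthesis passed, and their values leaned to lower levels. The log2 fold change was negative for 7 of 9 after Ad-Hif1a (median -0.11) and for 8 of 9 after Ad-Hif2a (median -0.30). Mthfd2, the mitochondrial folate enzyme, was at 37.9 to 39.6 CPM with Ad-C, 28.6 to 29.1 CPM after Ad-Hif1a and 24.5 to 33.0 CPM after Ad-Hif2a. Psph, the last step of serine synthesis, was at 18.4, 12.7 and 13.2 CPM with Ad-C, 10.8 to 11.0 after Ad-Hif1a and 9.69 to 10.6 after Ad-Hif2a. Both genes were below the controls in every vector library, at log2 fold changes of -0.41 and -0.45 (SE 0.15 each) for Mthfd2 and -0.42 and -0.55 (SE 0.17 and 0.18) for Psph. Without the libraries that stood apart Mthfd2 fell in both comparisons, by 0.45 and 0.42 (edgeR adjusted p = 0.029 and 0.039). Psph then fell by 0.58 after Ad-Hif2a (adjusted p = 0.023) and was at -0.29 after Ad-Hif1a (adjusted p = 0.26). The first steps of that path did not share this order. Phgdh was at 37.3 to 38.3 CPM with Ad-C and ranged from 25.2 CPM in Ad-Hif2a 1 to 52.9 CPM in Ad-Hif2a 3. Psat1 was at 53.8 to 60.1 CPM with Ad-C, 46.0 to 56.9 after Ad-Hif1a and 30.6 to 52.4 after Ad-Hif2a. In the fit without the libraries that stood apart Psat1 fell by 0.70 on the log2 scale after Ad-Hif2a (edgeR adjusted p = 0.0015), and after Ad-Hif1a it was at -0.21 (adjusted p = 0.32).

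Phgdh, Shmt2 and Pycr1 were higher in Ad-Hif1a 1 and Ad-Hif2a 3 than in the other 4 vector libraries. For Pycr1, of proline synthesis, these were 25.7 and 31.2 CPM against 17.8 to 20.9 CPM, with 26.8 to 28.0 CPM in the controls. Without them Pycr1 fell by 0.45 after Ad-Hif1a and by 0.57 after Ad-Hif2a on the log2 scale (edgeR adjusted p = 0.027 and 0.0067). Aldh18a1, also of proline synthesis, was at 84.4 to 90.5 CPM with Ad-C and 55.8 to 87.3 with the vectors. Asns, the asparagine synthetase that ATF4 is best known to induce, was at 45.3 to 49.2 CPM with Ad-C and 41.1 to 50.4 CPM with the vectors. Its log2 fold changes were -0.06 with either vector (SE 0.15 each). Shmt2, the mitochondrial serine enzyme, was at 31.8 to 47.8 CPM with the vectors and 41.2 to 44.0 with Ad-C. Cth, which makes cysteine, was at 2.19 to 3.89 CPM with the vectors and 2.89 to 3.20 with Ad-C.

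In the chaperone arm the 13 chaperones and folding enzymes had none that passed, though 10 of 13 had positive log2 fold changes with each vector (medians 0.27 and 0.20). Dnajb11, a co-chaperone of BiP, had the largest. It was at 124, 123 and 129 CPM with Ad-C, at 212, 188 and 165 CPM after Ad-Hif1a and at 200, 156 and 243 CPM after Ad-Hif2a. All 6 vector libraries were above the controls, at log2 fold changes of 0.59 (SE 0.19, edgeR adjusted p = 0.097) and 0.66 (SE 0.19, adjusted p = 0.057). Without the libraries that stood apart it passed in both comparisons, at 0.55 (adjusted p = 0.0051) and 0.48 (adjusted p = 0.014).

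Hsp90b1 and Calr were the most abundant of the chaperones. Hsp90b1 was at 1529, 1663 and 1442 CPM with Ad-C, 2243, 2156 and 1848 after Ad-Hif1a, and 2056, 1876 and 1615 after Ad-Hif2a. Calr was at 1749, 1721 and 1661 CPM with Ad-C, 2507, 2308 and 2011 after Ad-Hif1a, and 2174, 1992 and 2064 after Ad-Hif2a. For Calr both vector groups were clear of the controls, and for Hsp90b1 only Ad-Hif1a was. Neither passed, with log2 fold changes of 0.43 and 0.41 (SE 0.15 each, edgeR adjusted p = 0.12 and 0.14) after Ad-Hif1a and 0.25 and 0.28 (SE 0.15 each) after Ad-Hif2a. Without the libraries that stood apart both rose after Ad-Hif1a, by 0.42 and 0.38 (edgeR adjusted p = 0.028 and 0.040), and were at 0.30 and 0.25 after Ad-Hif2a (adjusted p = 0.11 and 0.18). Canx, the membrane-bound relative of calreticulin, was at 497 to 517 CPM with Ad-C and 416 to 524 CPM with the vectors.

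Hspa5, the gene most used as a readout of ER stress, was at 799, 862 and 739 CPM with Ad-C. It was at 883, 880 and 802 CPM after Ad-Hif1a and at 929, 835 and 705 CPM after Ad-Hif2a. The groups overlapped, and the log2 fold changes of 0.10 and 0.04 (SE 0.15 each) were below their SE. Dnajb9, a co-chaperone induced through XBP1, gave -0.03 and -0.01 (SE 0.28 each), with 37.3 to 41.9 CPM in the controls and 25.9 to 47.2 CPM with the vectors.

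The secreted ER proteins Manf and Creld2 had their 2 highest values in the libraries that stood apart. Manf was at 198 to 202 CPM with Ad-C, and at 299, 227 and 202 CPM after Ad-Hif1a and 263, 210 and 390 CPM after Ad-Hif2a. Creld2 was at 50.8 to 55.9 CPM with Ad-C, and at 79.0, 59.7 and 54.5 CPM after Ad-Hif1a and 65.5, 56.6 and 100.1 CPM after Ad-Hif2a. In both genes Ad-Hif2a 3 was highest and Ad-Hif1a 1 next. The log2 fold changes went from 0.27 to 0.15 and from 0.50 to 0.21 for Manf, and from 0.29 to 0.19 and from 0.48 to 0.18 for Creld2, when these libraries were left out, and none passed in either fit. Pdia6, a disulphide isomerase, had the same 2 libraries on top (455 and 489 CPM, against 314 to 388 in the other vector libraries and 314 to 328 in the controls), and without them its log2 fold changes were 0.16 and 0.06 (edgeR adjusted p = 0.38 and 0.76). Dnajc3, a BiP co-chaperone that also inhibits PERK, had them at the bottom, at 114 CPM in Ad-Hif1a 1 and 79.1 CPM in Ad-Hif2a 3 against 136 to 162 CPM in the others and 158 to 168 CPM in the controls. Its log2 fold changes went from -0.22 to -0.10 and from -0.41 to -0.12 without them. Pdia4 and Hyou1 were lowest in Ad-Hif2a 3, at 257 and 89.8 CPM, below the 329 to 338 and 114 to 117 CPM of Ad-C, and above the controls in the other 5 vector libraries. Without the libraries that stood apart Pdia4 rose by 0.34 after Ad-Hif2a (edgeR adjusted p = 0.049), and Hyou1 was at 0.24 (adjusted p = 0.16). Sdf2l1 was at 15.2 to 16.3 CPM with Ad-C and 15.9 to 21.1 with the vectors.

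Of the 4 genes for disposal of misfolded proteins, Edem1 passed in both comparisons, and log2 fold changes were negative for 3 of 4 after Ad-Hif1a and for 4 of 4 after Ad-Hif2a. Edem1, which marks misfolded glycoproteins for export from the ER, was at 87.1, 87.9 and 87.9 CPM in the Ad-C libraries. It was at 57.7, 57.2 and 59.6 CPM after Ad-Hif1a and 54.8, 62.0 and 53.6 CPM after Ad-Hif2a. The 3 control libraries were almost equal and none of the 6 vector libraries was above 62.0 CPM. Edem1 fell 1.51-fold after Ad-Hif1a (log2 fold change -0.59, SE 0.13, edgeR adjusted p = 0.032) and 1.54-fold after Ad-Hif2a (-0.63, SE 0.13, adjusted p = 0.021). The calls held in 11 and 12 of 18 alternatives and were lost in both comparisons without any 1 Ad-C library, without Ad-Hif1a 2 or without Ad-Hif2a 1. The Ad-Hif1a call was also lost without Ad-Hif1a 1 and with no filter on low counts, and the Ad-Hif2a call in the 6 libraries alone. The highest adjusted p over these alternatives was 0.25 and 0.15. The log2 fold change stayed between -0.63 and -0.54 after Ad-Hif1a and between -0.70 and -0.56 after Ad-Hif2a.

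Sel1l, the adaptor of the ubiquitin ligase that clears misfolded proteins, was at 220 to 230 CPM with Ad-C, 175 to 193 CPM after Ad-Hif1a and 157 to 187 CPM after Ad-Hif2a. Herpud1, a membrane protein of the same complex, was at 50.7 to 55.5 CPM with Ad-C, 36.5 to 47.6 after Ad-Hif1a and 39.0 to 47.4 after Ad-Hif2a. Both were below the controls in each vector library and neither passed (log2 fold changes -0.30 and -0.39 for Sel1l, SE 0.14 each, and -0.34 and -0.27 for Herpud1, SE 0.16 each). Syvn1, the ligase itself, was at 24.5 CPM in Ad-Hif2a 3 and at 37.4 to 49.5 CPM in the other vector libraries, around the 35.0 to 43.8 CPM of Ad-C.

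None of the 6 sensors and factors passed, and 5 of 6 had negative log2 fold changes with each vector (medians -0.28 and -0.31). Atf6 was at 74.9, 78.1 and 79.8 CPM with Ad-C, 47.3, 61.1 and 65.0 after Ad-Hif1a and 49.8, 68.6 and 39.7 after Ad-Hif2a. Xbp1 was at 98.7 to 101 CPM with Ad-C, 73.6, 84.2 and 89.7 after Ad-Hif1a and 91.9, 92.8 and 56.1 after Ad-Hif2a. Both were below the controls in all 6 vector libraries, at log2 fold changes of -0.43 and -0.58 (SE 0.21 each, edgeR adjusted p = 0.24 and 0.10) for Atf6 and -0.28 and -0.34 (SE 0.21 each) for Xbp1.

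Eif2ak3, the PERK gene, was at 62.8, 59.4 and 63.3 CPM with Ad-C. It was at 30.8, 49.9 and 64.6 CPM after Ad-Hif1a and 52.1, 63.2 and 17.7 CPM after Ad-Hif2a. Low levels were again seen in Ad-Hif1a 1 and Ad-Hif2a 3. Without these libraries the log2 fold change went from -0.35 to -0.15 after Ad-Hif1a and from -0.53 to -0.03 after Ad-Hif2a. Creb3l2, a relative of Creb3l1, was at 28.9 and 17.0 CPM in them and at 34.0 to 49.5 CPM in the other vector libraries, with 25.8 to 36.5 CPM in the controls. It rose by 0.47 and 0.52 on the log2 scale once they were left out (edgeR adjusted p = 0.033 and 0.018), against 0.35 and 0.06 with them. Creb3l1 was at 278 to 312 CPM with Ad-C and 172 to 295 CPM with the vectors. Ern1 was at 24.6 to 27.3 CPM with Ad-C and 18.1 to 27.5 with the vectors.

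**Figure D3:**
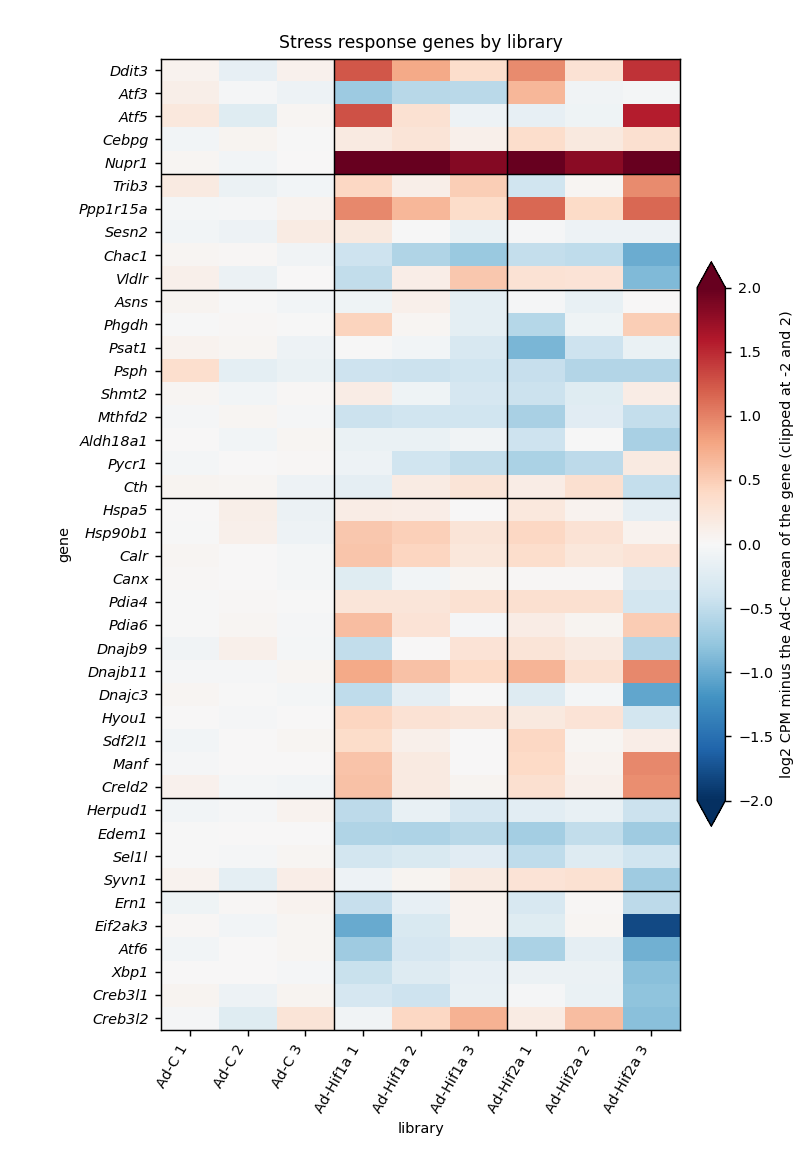
Log2 CPM of the 42 genes (rows, parted by role) in the 9 libraries (columns), minus the Ad-C mean of each gene, in red for higher and blue for lower and clipped at -2 and 2. Nupr1 is red in all 6 vector libraries and Edem1 blue in all 6, while Ad-Hif1a 1 and Ad-Hif2a 3 show deeper colours than the other vector libraries in Atf5, Eif2ak3 and Manf.

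Medians by role, which were chosen with earlier results known, are set side by side here, and differences between roles were not tested. In the ATF4-target arm the transcription factors had median log2 fold changes of 0.61 and 0.59, the feedback regulators 0.11 and -0.03, and the enzymes -0.11 and -0.30, after Ad-Hif1a and Ad-Hif2a in that order. Over 5 genes, both transcription factor medians are the values of Atf5, the most uneven member. Without Ad-Hif1a 1 and Ad-Hif2a 3 the values of Atf5 were 0.17 and -0.17. In the chaperone arm the folding genes had 0.27 and 0.20 and the disposal genes -0.32 and -0.33. The median over the whole arm was 0.02 and -0.03 for ATF4 targets and 0.16 and 0.04 for the chaperone arm. By library, the chaperone arm median lay 0.25, 0.14 and 0.04 above the Ad-C mean on the log2 scale in the Ad-Hif1a libraries, and at 0.25, 0.07 and -0.29 in the Ad-Hif2a libraries. The ATF4-target median was between -0.16 and 0.04 in all 6. Ad-Hif2a 3 thus had the lowest chaperone arm median of the 9 libraries, next to a transcription factor median of 1.44 that was the highest. Within that arm the folding genes of Ad-Hif2a 3 had a median of 0.07 and the disposal genes -0.57. The 1.44 is the value of Ddit3.

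**Figure D4:**
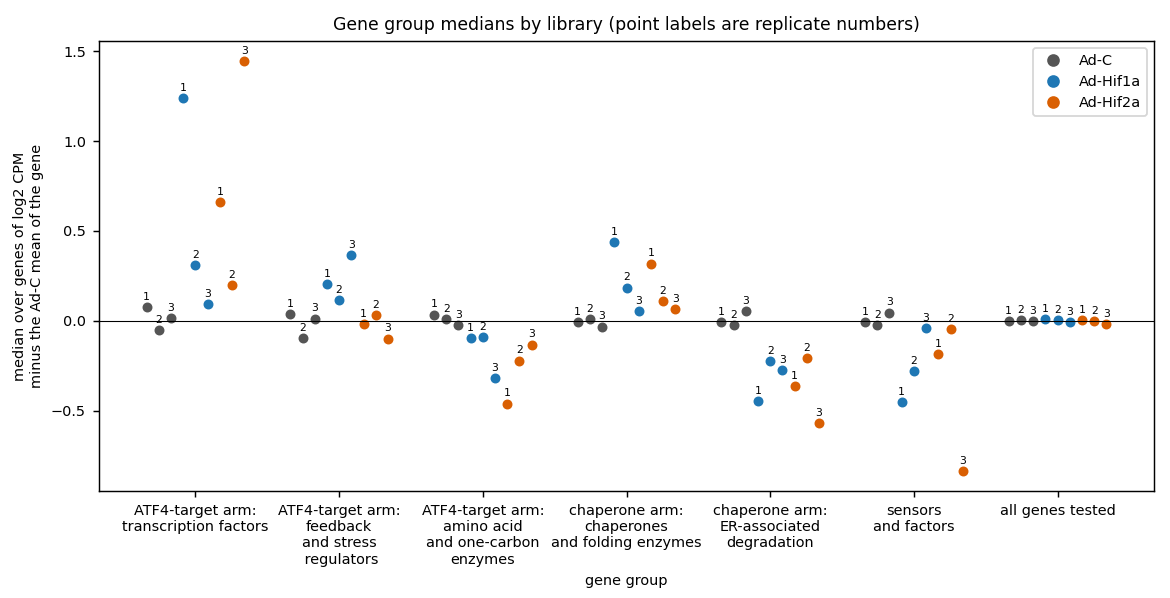
Median over each gene group (x axis) of log2 CPM minus the Ad-C mean of the gene (y axis) in each library, with points numbered by replicate and coloured by group. The ATF4-target transcription factors lie above 0 in all 6 vector libraries and the disposal genes below 0 in all 6, and Ad-Hif2a 3 lies at -0.83 among sensors and factors while all genes tested lie within 0.02 of 0.

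The spread within groups differed. The median coefficient of variation over the 42 members was 3.76% with Ad-C, 12.8% after Ad-Hif1a and 24.2% after Ad-Hif2a, and over all genes tested 7.85, 17.0 and 25.8%. Ad-Hif1a 1 and Ad-Hif2a 3 were both above the other 4 vector libraries for 10 members (23.8%) and both below them for 12 (28.6%), where 24.9% and 25.6% of all genes were. Those above were Ddit3, Atf5, Nupr1, Phgdh, Shmt2, Pycr1, Pdia6, Dnajb11, Manf and Creld2. Of the 6 sensors and factors, 5 were below, namely Ern1, Eif2ak3, Atf6, Xbp1 and Creb3l2. Exon lengths ran from 829 bases (Nupr1) to 3767 (Pycr1) among the 10 above. Among the 12 below they ran from 1815 (Cth) to 8308 (Vldlr), with Ern1 at 8157 and Atf6 at 7246. The part of transcript length in this split was not tested. These 2 libraries were picked out from the same counts, so this is a description of them and not a test.

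Between the vectors no member passed, as none of the 14413 genes did by edgeR (0.00% rose and 0.00% fell). At an unadjusted p under 0.05 there were 1 of 42 members and 338 of all genes. DESeq2 called 14 genes higher and 5 lower in Ad-Hif2a, no member among them. All 3 Ad-Hif2a libraries were above all 3 Ad-Hif1a libraries for Atf3 alone and below them for Psph alone, where 3.07% of all genes were above and 3.21% below. Nupr1 differed by -0.02 on the log2 scale (SE 0.19) and Edem1 by -0.04 (SE 0.13). The largest differences after Atf3 were Psat1 at -0.34 (SE 0.22) and Creb3l2 at -0.29 (SE 0.38). Hif1a and Epas1 themselves did not pass in this comparison either, at -1.75 (SE 0.25) and 1.64 (SE 0.40).

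Other genes of these pathways were taken from lists that hold no member. Atf4 itself was at 164, 158 and 157 CPM with Ad-C, 190, 151 and 127 after Ad-Hif1a and 162, 137 and 231 after Ad-Hif2a, at log2 fold changes of -0.04 and 0.13 (SE 0.23 each). Of 11 genes of eIF2α kinases and translation control, Atf4 included, 0 passed in either comparison, and 0 had an unadjusted p under 0.05 by edgeR. Among them Eif2ak4, the amino acid sensor GCN2, had log2 fold changes of -0.43 and -0.81 (adjusted p = 0.48 and 0.17). Of 12 cytosolic tRNA synthetases, which ATF4 induces in amino acid shortage, 0 passed in either comparison by edgeR, with 0 and 1 at an unadjusted p under 0.05 and medians of 0.16 and 0.11. For both lists, 6.04% of all 14413 genes rose and 5.22% fell after Ad-Hif1a, and 7.87% rose and 7.72% fell after Ad-Hif2a. At an unadjusted p under 0.05 by edgeR there were 3771 and 4889 of all genes.

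Of 13 further ATF4 targets, Atf4 again included, 2 rose (15.4%) and 1 fell (7.69%) after Ad-Hif1a, and 3 rose (23.1%) and 1 fell (7.69%) after Ad-Hif2a, against 6.04% and 5.22%, and then 7.87% and 7.72%, of all genes. Cebpb, a bZIP partner of ATF4 that also answers to inflammatory signals, was at 22.8, 17.6 and 21.7 CPM with Ad-C, 181, 109 and 112 after Ad-Hif1a and 172, 120 and 278 after Ad-Hif2a. Its log2 level rose by 2.69 (SE 0.29, edgeR adjusted p = 0.0018) and by 3.15 (SE 0.29, adjusted p = 0.00082). Ddit4, the mTORC1 inhibitor REDD1 that hypoxia also induces, was at 20.7 to 23.8 CPM with Ad-C and 31.6 to 51.5 CPM with the vectors, and rose by 0.69 (adjusted p = 0.041) and 0.95 (adjusted p = 0.010). Slc7a11, the cystine transporter, is named because it was the remaining gene called, a choice made after its values were seen. It was at 1.77 to 3.15 CPM with Ad-C, 3.74 to 7.21 after Ad-Hif1a and 4.22 to 8.29 after Ad-Hif2a, and rose after Ad-Hif2a (1.52, SE 0.37, adjusted p = 0.035). Niban1 fell by 1.86 and 2.19 on the log2 scale (edgeR adjusted p = 0.0047 and 0.0020), from 170 to 186 CPM with Ad-C to 27.3 to 56.3 CPM with the vectors.

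Of 21 further genes of ER folding and quality control, 0 passed after Ad-Hif1a, where 6.04% of all genes rose and 5.22% fell. By edgeR 4 of the 21 had an unadjusted p under 0.05, as did 3771 of all 14413 genes. After Ad-Hif2a 1 of the 21 rose (4.76%), against 7.87% of all genes. The gene that rose was Ero1a, the oxidase that drives disulphide formation and is known to be induced by hypoxia. It was at 55.8, 58.3 and 57.7 CPM with Ad-C, 74.0, 90.0 and 86.7 after Ad-Hif1a and 117, 101 and 101 after Ad-Hif2a. The groups stood in 3 steps without overlap, with log2 fold changes of 0.55 (SE 0.15, edgeR adjusted p = 0.062) and 0.89 (SE 0.15, adjusted p = 0.0086), and a difference between the vectors of 0.35 (SE 0.15, adjusted p = 1.00). P4hb, a disulphide isomerase that is also part of the collagen prolyl hydroxylase, had 0.48 and 0.30 (adjusted p = 0.086 and 0.19). Of 6 further ER stress factors and proteases, Bcl2l11 (BIM, a cell death factor) fell by 1.02 and 0.88 on the log2 scale (edgeR adjusted p = 0.027 and 0.037), from 16.5 to 20.0 CPM with Ad-C to 6.97 to 11.1 CPM with the vectors. It was the only call of the 6 in each comparison (16.7%), where 5.22% and 7.72% of all genes fell.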

How the data were processed

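RNA was sequenced from 9 libraries of mouse primary calvarial pre-osteoblasts, 3 per vector, by the CORALL kit on total RNA. The authors deposited whole-number read counts per gene symbol, not normalized, and their processing notes name bcl2fastq 2.20.0.422, fastp, STAR, Salmon and build GRCm39. Counts of 40213 symbols (15482 with none in any library) went into edgeR 4.0.16 under R 4.3.3. The 14413 genes that passed filterByExpr were scaled by TMM (factors 0.957 to 1.03) and fitted by the robust quasi-likelihood model on all 9 libraries, with group and replicate number as terms, because the study's criteria name a paired test. This left 4 residual degrees of freedom. The Benjamini-Hochberg adjustment covered every tested gene, and genes under 0.05 are said to have risen or fallen. The fit was tested on simulated data that had independent libraries, the same spread in each group and no effect of replicate number. That test cannot show how the fit handles the unequal spread of these groups. SEs are those of the log2 fold change, and a prior count of 2 was used for log2 CPM. The labels do not name separate cultures, while the study's methods speak of repeated independent experiments in general, so the p-values measure the spread between these libraries, whatever its source.

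Alternatives were no replicate block, DESeq2 1.42.0, other scaling factors, other filters, the 6 libraries of a comparison alone, single libraries left out in turn, and both libraries that stood apart left out. The members, their roles and the other lists were chosen with earlier results of these data known. All 42 members may be named, with up to 3 genes of each other list by lowest adjusted p, Atf4, Hif1a and Epas1. Slc7a11 falls outside this rule and was added after its values were seen. Promoter windows are RefSeq sequences of GRCm38.p6, and exon lengths (GENCODE M21) are of that earlier build as well, so no position in the authors' build is given. Of the 42 members 37 had a window, and Cth, Hyou1, Manf, Atf6 and Creb3l1 had none.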

Additional observations from a re-analysis of the deposited data

How the results depend on the processing

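Counts of members that passed depended on how the spread was estimated. Without the replicate block, 1 gene of the chaperone arm rose after Ad-Hif1a (8.53% of all genes rose and 7.98% fell), and after Ad-Hif2a 3 ATF4 targets rose (Ddit3 was gained) and 3 fell, 1 chaperone arm gene rose and 2 fell, while 1792 genes in all rose and 1660 fell after Ad-Hif2a against 1135 and 1112 with the block. Libraries of the same number did not deviate together (correlations of -0.575 to 0.098, against -0.569 to 0.61 for other numbers, with 7 of 18 best with their own number), so the numbers do not show a pairing. With DESeq2, 3 chaperone arm genes rose after Ad-Hif1a (8.74% and 8.4% of all genes), and after Ad-Hif2a 3 ATF4 targets rose and 1 fell, 1 chaperone arm gene rose and 2 fell, and 1825 genes in all rose and 1701 fell after Ad-Hif2a. With upper-quartile or no composition factors, 1 ATF4 target fell after Ad-Hif2a (8.21 and 8.69% of all genes fell). With no filter, 0 chaperone arm genes fell after Ad-Hif1a. With the 6 libraries alone, 3 ATF4 targets rose, 3 fell and 4 chaperone arm genes rose after Ad-Hif1a and Atf6 fell (2390 and 2316 genes in all), and 0 chaperone arm genes fell after Ad-Hif2a.

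Without both libraries that stood apart, Ad-Hif1a gave 3 ATF4 targets and 3 chaperone arm genes that rose and 3 ATF4 targets that fell. After Ad-Hif2a 3 ATF4 targets rose, 4 fell and 2 chaperone arm genes rose. Creb3l2 rose in both. Leaving out 1 library at a time gave, after Ad-Hif1a, 1 to 3 ATF4 targets that rose, 0 to 3 that fell, 0 to 4 chaperone arm genes that rose and 0 to 1 that fell, and after Ad-Hif2a 1 to 3, 0 to 2, 0 to 1 and 0 to 1. The highest counts after Ad-Hif1a came without Ad-Hif2a 3, when 2647 genes in all rose and 2683 fell, and Atf6 and Creb3l1 fell too. The lowest, 1 member that rose and 0 that fell, came without any 1 Ad-C library, Ad-Hif1a 1 or 2, or Ad-Hif2a 1, when 2.06 to 4.76% of all genes rose and 0.922 to 3.95% fell. The causes were not tested. Of 2268 alternative fold changes of single members, 2186 kept their side of the threshold, 63 passed newly and 19 no longer passed. The sign differed in 173, all called in neither fit, and in 0 that were called in either.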

Other observations

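Heat-shock proteins of the cytosol and mitochondria, which answer to HSF1 and the mitochondrial stress response rather than to the ER, were looked at beside the 42 genes. Of 11 such genes, 0 passed in either comparison by edgeR, with 1 at an unadjusted p under 0.05 with Ad-Hif1a and 5 with Ad-Hif2a. Of all 14413 genes, 6.04% and 7.87% rose, 5.22% and 7.72% fell, and 3771 and 4889 had an unadjusted p under 0.05. All 3 vector libraries were above all 3 Ad-C libraries for 7 of 11 in each comparison, where 24.5% and 24.0% of all genes were, and the median log2 fold changes were 0.30 and 0.35. Hspd1, the mitochondrial chaperonin HSP60, was at 159, 156 and 142 CPM with Ad-C, 240, 209 and 176 with Ad-Hif1a and 218, 212 and 222 with Ad-Hif2a. Its log2 fold changes were 0.45 (SE 0.15, edgeR adjusted p = 0.11) and 0.52 (SE 0.15, adjusted p = 0.055). Hspe1, its co-chaperonin, had 0.68 (SE 0.36) and 1.04 (SE 0.37, adjusted p = 0.098), and Hspb1, a small heat-shock protein, 0.42 (SE 0.23) and 0.67 (SE 0.23, adjusted p = 0.098).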
